A study of Homo sapiens with 24 samples.

Results

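Toll-like receptors and the interleukin-1 receptor pass their signal on through a short chain of kinases, ubiquitin ligases and adaptors, and 10 genes of that chain were followed here: IRAK1, IRAK2, IRAK3, TRAF6, TAB1, TAB2, TAB3, MAP3K7 (the kinase TAK1), MAP3K8 (the kinase TPL2) and TOLLIP. They were chosen by name as components of the relay, 10 of 38735 named genes in the data, and all 10 passed the filter on low values that left 13900 genes for testing. The choice was made with earlier results of these data known. Counts and medians over the 10 genes are therefore a description and not a test. RNA was measured in THP-1 cells, a human monocytic leukaemia line, in 24 libraries that form 4 groups of 6. Cells of every group had been made macrophage-like with 100 nM of the phorbol ester PMA for 24 h, so no group shows undifferentiated cells. The Control group then had medium alone and the DCVC group 5 µM S-(1,2-dichlorovinyl)-L-cysteine, a metabolite of the solvent trichloroethylene, for 24 h. The LPS group had 100 ng/mL lipopolysaccharide, the TLR4 ligand from gram-negative bacteria, for 4 h, added with fresh medium, and the DCVC_LPS group had DCVC and then LPS on the same schedule. The series asks, by its title, whether DCVC inhibits the inflammatory transcription that LPS induces.

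When TLR4 binds LPS, the adaptor MYD88 gathers IRAK4, IRAK1 and IRAK2 into a complex, and these kinases hand the signal to TRAF6, a ubiquitin ligase. The ubiquitin chains that TRAF6 builds are bound by TAB2 or TAB3, which bring the kinase TAK1 and its activator TAB1 to the complex, and TAK1 then activates the IKK kinases of the NF-kB route and the kinases upstream of JNK and p38. TPL2 feeds the ERK route and is held inactive by the NFKB1 precursor p105 until IKK acts on p105. TNIP2 is counted here as another partner of TPL2. IRAK3, also called IRAK-M, and TOLLIP are known as brakes on the IRAK step in macrophages.

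Each library held 18478618 to 30107819 reads in named genes, the highest value being that of LPS A and the highest other value 27986524. In LPS A 1 read is worth 0.991 normalized counts, close to 1. The values are normalized counts, that is reads divided by 1 factor per library, and they still sum to different totals: 21135356 on average in Control and 29427331 with LPS, against 17774466 with DCVC and 21831254 with DCVC and LPS. Rescaling to equal totals moves the median change of all genes by -0.48 on the log2 scale in LPS minus Control, 0.25 in DCVC minus Control, 0.43 in DCVC_LPS minus LPS and -0.30 in DCVC_LPS minus DCVC, so calls that this ends or turns are named with each gene. Libraries with the replicate letters E and F stood apart from A to D for some relay genes: in Control, IRAK1 averaged 6619 in E and F against 9022 in A to D, and IRAK3 446 against 194. The fit behind the calls has no letter term, so errors, intervals, calls and shares over all genes are unpaired unless a block is named. The labels do not say what the letters mark or whether each library is a culture of its own, and p-values therefore reflect the spread among libraries alone, which may be technical. Nor do they pair the letters as A and B, C and D, and E and F, and fits within such a pair reuse the same libraries. Of 7 macrophage markers, 6 averaged at least 10 in Control and 7 in each other group, and CD68 was low throughout, at a mean of 5.28 in Control and 25.5 in DCVC_LPS. The macrophage markers summed to 46551 to 64081 in Control and 22073 to 27229 in LPS, and to 36903 to 44244 in DCVC and 25755 to 30330 in DCVC_LPS. CD3E, a defining T cell marker, averaged 0 to 0.284, while the T cell gene TRAC averaged 2288 in Control and 199 in LPS, with 1585 in DCVC and 241 in DCVC_LPS. The 3 B cell, 3 erythroid and 3 epithelial markers summed to at most 33.8, 4.96 and 1.67 in any library, and the endothelial and fibroblast lists reached 608 and 160 through VWF and PDGFRB. The part of these markers in the results was not tested. All libraries are of the THP-1 line, and in bulk RNA fewer cells with a transcript and less of it per cell cannot be told apart.

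The promoters of IRAK2 and MAP3K8 are shown because these relay genes had the 2 largest changes with LPS. Each window holds the 250 bases before a RefSeq transcription start in GRCh38.p14, 5′ to 3′ on the gene's own strand. Capitals mark a match, on either strand, to the NF-kB motif, the AP-1 motif TGANTCA or the TATA box TATAAA, which do not overlap in these windows.
IRAK2, chr3:10164669-10164918, plus strand: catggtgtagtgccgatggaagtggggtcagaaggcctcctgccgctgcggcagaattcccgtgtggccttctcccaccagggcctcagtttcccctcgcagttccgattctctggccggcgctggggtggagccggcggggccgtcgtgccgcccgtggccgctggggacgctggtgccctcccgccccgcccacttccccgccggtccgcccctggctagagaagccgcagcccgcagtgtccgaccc
MAP3K8, chr10:30433771-30434020, plus strand: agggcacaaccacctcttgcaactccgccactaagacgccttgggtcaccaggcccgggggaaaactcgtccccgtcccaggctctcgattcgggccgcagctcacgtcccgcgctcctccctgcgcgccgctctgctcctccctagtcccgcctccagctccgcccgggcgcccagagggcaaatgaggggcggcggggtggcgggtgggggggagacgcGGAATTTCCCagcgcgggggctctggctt
The IRAK2 window held no match to these 3 motifs. The MAP3K8 window held 1 NF-kB match, from -29 to -20 relative to the start, and the windows of 2 later MAP3K8 starts held an NF-kB match too, from -192 to -183, which is the same site seen from a later start, and from -207 to -198. In the window where the site lay from -192 to -183, an AP-1 match lay from -51 to -45. All 10 relay genes were found in the RefSeq promoter table, with 14 windows, and 3 of the 14 held an NF-kB match, all of MAP3K8, while 5.21% of all 35116 windows held one. An AP-1 match was found in 1 of the 14 and in 6.57% of all windows, and a TATA box in 0 of the 14 and in 10.7%. The motifs named ARE, SP1, CCAAT and CRE were searched too and are not marked. They matched in 4, 11, 2 and 0 of the 14 windows, against 10.9%, 42.6%, 32.0% and 1.65% of all windows. Such a match is a description of the sequence and not a measured binding site.

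In LPS minus Control, 6 of the 10 relay genes were raised and 3 lowered, with only TRAF6 not called, while 78.4% of all tested genes were called, 37.8% raised and 40.6% lowered. The kinase genes IRAK2 and MAP3K8 rose most, by 45.4-fold and 15.8-fold, and TAB3, TAB2 and MAP3K7 rose by 2.09-fold, 1.79-fold and 1.72-fold. TAB1 fell 3.15-fold, so the TAB genes moved in opposite directions. The 6 libraries of each group did not overlap for 5 of the raised genes (28.7% of all genes) and 2 of the lowered (28.1%). The median change of the 10 genes was 0.65 on the log2 scale, against -0.03 over all tested genes. With equal totals the split was 5 raised and 4 lowered.

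In cells that had DCVC first, DCVC_LPS minus DCVC, 5 relay genes were raised and 3 lowered, and the groups did not overlap for any of the 8. Of all tested genes 62.1% were called, 29.9% raised and 32.2% lowered, and 22.1% and 23% had no overlap. The raised genes were IRAK2, TAB2, TAB3, MAP3K7 and MAP3K8, and the lowered were IRAK3, TAB1 and TOLLIP. The median was 0.35 against -0.03 over all genes, and equal totals gave 5 raised and 4 lowered.

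DCVC alone, set against Control, raised 3 of the genes and lowered 5, where 59.7% of all genes were called, 27.5% raised and 32.2% lowered. TAB2 changed most, with a 2.83-fold fall, and TAB1, IRAK2, IRAK1 and TOLLIP were lower by 1.30-fold, 1.47-fold, 1.34-fold and 1.11-fold. MAP3K7, TAB3 and IRAK3 were higher, by 1.21-fold, 1.31-fold and 1.48-fold. Groups did not overlap for 2 genes that were higher, against 16.6% of all genes, and 2 that were lower, against 19.8%. The median change was -0.07 against -0.03 over all genes, and with equal totals the count was 5 raised and 1 lowered. This comparison and LPS minus Control share the Control libraries.

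Where DCVC came before LPS, DCVC_LPS minus LPS, IRAK1, IRAK2 and TAB2 were lowered by 1.66-fold, 1.79-fold and 1.71-fold. TAB1 and TRAF6 were raised by 1.31-fold and 1.11-fold, and 5 genes were not called. Of all tested genes 72.7% were called, 33.3% raised and 39.4% lowered. Non-overlapping groups were found for 3 lower genes (29.4% of all genes) and 1 higher gene (22.4%), TAB1. The median was -0.03 against -0.07 over all genes, and equal totals gave 5 raised and 3 lowered, with IRAK1, IRAK2 and TAB2 still the lowered ones.

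**Figure D1:**
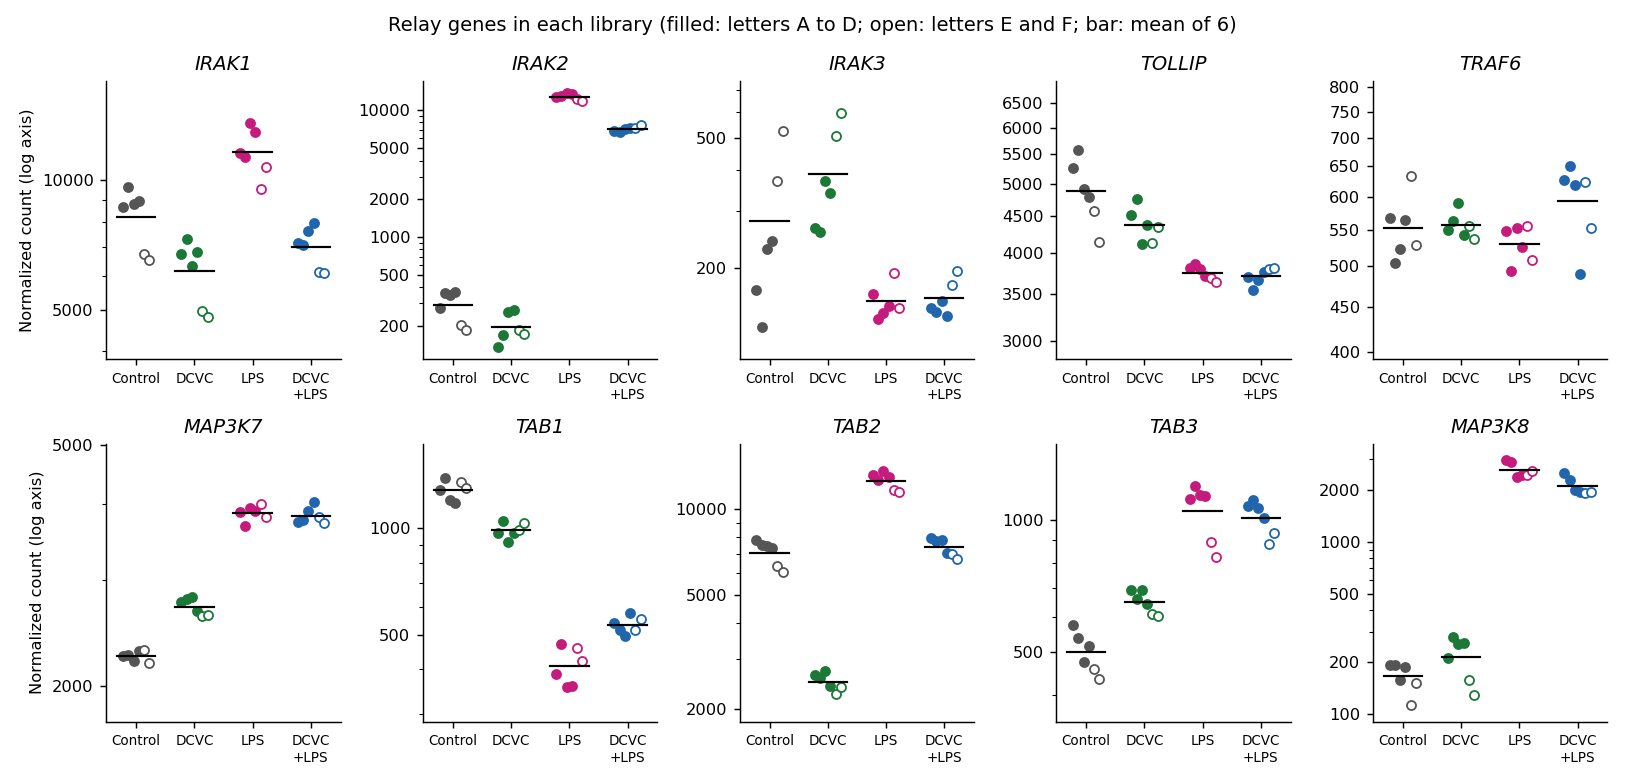
Normalized counts (log axis) of the 10 relay genes in each of the 24 libraries, with filled points for letters A to D, open points for E and F, and a bar for the mean of 6. IRAK2 and MAP3K8 sit far higher in both groups that had LPS, TAB1 far lower, and TAB2 lowest in the DCVC group.

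**Figure D2:**
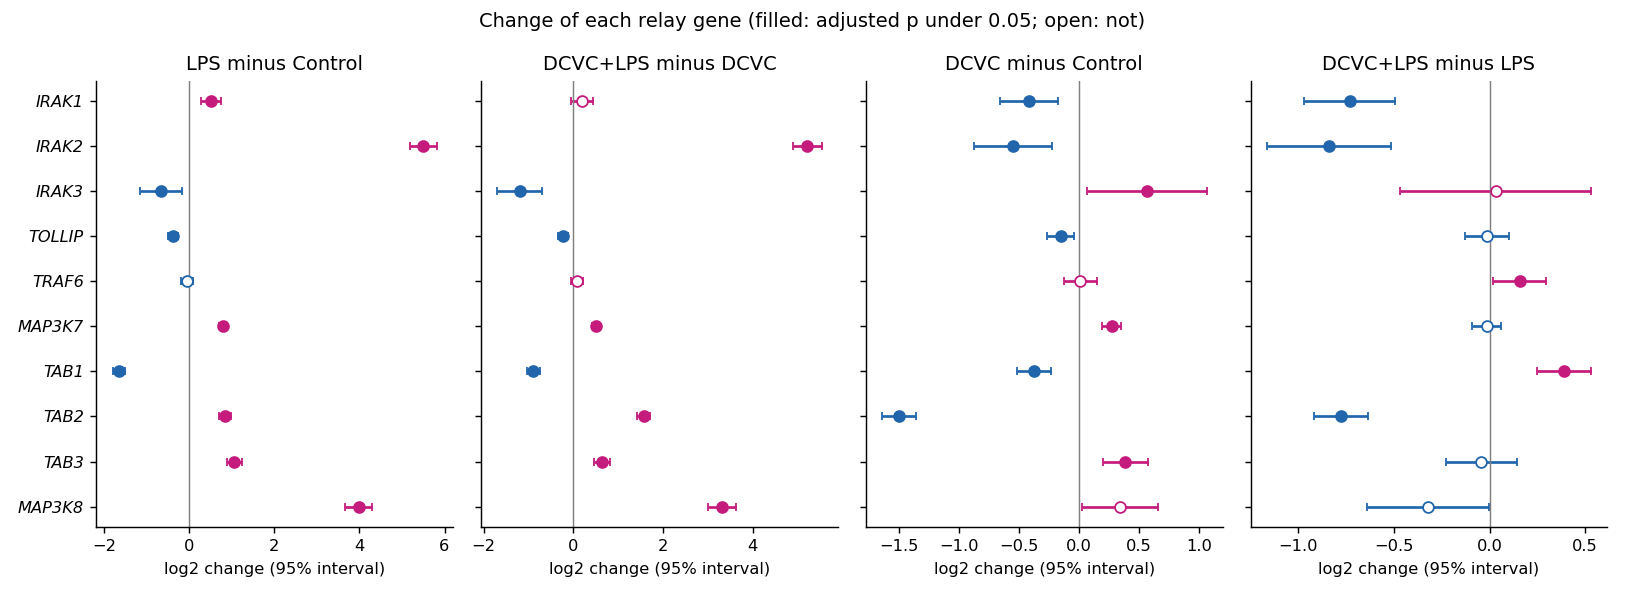
Log2 change of each relay gene with its 95% interval in the 4 comparisons, filled where the adjusted p is under 0.05. In LPS minus Control 9 of the 10 genes are filled, and in DCVC_LPS minus LPS 5 are.

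IRAK1 and IRAK2 are the kinases next to TRAF6. IRAK2 (chr3:10164865-10243743, plus strand in GRCh38) ran from 184 to 368 normalized counts in Control (median 313), from 136 to 264 in DCVC (median 177), from 11744 to 13590.0 in LPS (median 12868) and from 6780.2 to 7712 in DCVC_LPS (median 7110.4). Both groups with LPS lay above both groups without it, and DCVC_LPS lay wholly below LPS. The log2 change was 5.50 ± 0.16 (SE, adjusted p = 7.28e-20) in LPS minus Control and 5.21 ± 0.16 (adjusted p = 6.96e-19) in DCVC_LPS minus DCVC. IRAK2 fell by 0.55 ± 0.16 (adjusted p = 0.0041) on the log2 scale with DCVC alone, where the groups overlapped, and by 0.84 ± 0.16 (adjusted p = 3.97e-05) in DCVC_LPS minus LPS. With equal totals the change in DCVC_LPS minus LPS was -0.41 (adjusted p = 0.0191), the change with DCVC alone was -0.30 and not called (adjusted p = 0.0873), and in letters E and F alone the change was -0.13 (adjusted p = 0.291).

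IRAK1 (chrX:154010500-154019980, minus strand) was abundant in every group. It ran from 6509.8 to 9653 in Control (median 8746), 4794 to 7319.8 in DCVC (median 6532), 9560.0 to 13644 in LPS (median 11459) and 6098 to 7950.2 in DCVC_LPS (median 7121). LPS alone gave the highest values, overlapping Control only at the edge, and DCVC_LPS lay wholly below LPS. IRAK1 rose by 0.51 ± 0.12 in LPS minus Control (adjusted p = 0.000335), but by 0.03 with equal totals (adjusted p = 0.797). It fell by 0.42 ± 0.12 with DCVC alone (adjusted p = 0.00329), a call that equal totals ended at -0.17 (adjusted p = 0.172). The fall in DCVC_LPS minus LPS, 0.73 ± 0.12 (adjusted p = 4.51e-06), was 0.30 with equal totals and still called, and came to -0.69, -0.77 and -0.73 within letters A and B, C and D, and E and F. In DCVC_LPS minus DCVC the change was 0.20 ± 0.12 and not called (adjusted p = 0.146), with the letter as a block it was called (adjusted p = 0.00384), and with equal totals it was -0.10.

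IRAK3, which restrains the IRAK1 and IRAK2 step, had the lowest mean level per length of exon of the relay genes. Its gene (chr12:66188879-66254622, plus strand) shares 244 exon bases with an antisense gene that has no row under its name, so some of its reads are uncertain. Entries without a gene name were not searched for that gene. IRAK3 ran from 132 to 523 in Control (median 236), 258 to 596 in DCVC (median 354), 140.5 to 194 in LPS (median 152) and 143 to 196 in DCVC_LPS (median 155). The groups with LPS were low and tight, and the groups without it were spread. DCVC lay wholly above both groups with LPS, while Control overlapped every other group. In DCVC_LPS minus DCVC IRAK3 fell by 1.19 ± 0.24 (adjusted p = 0.000142). It fell by 0.66 ± 0.24 in LPS minus Control (adjusted p = 0.0156), but the change was -0.45 (adjusted p = 0.0587) without Control F, -1.14 with equal totals, and 0.02, -0.65 and -1.36 within letters A and B, C and D, and E and F. The rise with DCVC alone, 0.56 ± 0.24 (adjusted p = 0.0475), was lost in 22 of 35 alternative settings, and the adjusted p reached 0.149 on leaving out 1 library. Some of these left out an LPS or DCVC_LPS library, where the change stayed at 0.56 and the adjusted p rose to at most 0.0534. The rise was called with the letter as a block (adjusted p = 0.00464) and with equal totals (0.81, adjusted p = 0.00586). Within letters A and B, C and D, and E and F it was 0.79, 0.58 and 0.32 (adjusted p = 0.000423, 0.000448 and 0.223). In DCVC_LPS minus LPS the change was 0.03, with a 95% interval from -0.47 to 0.53.

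TOLLIP binds IRAK1 in resting cells. Its level (chr11:1274371-1309654, minus strand) ran from 4145 to 5581 in Control and from 4112 to 4755 in DCVC, against 3634 to 3853 in LPS and 3541 to 3799 in DCVC_LPS, so both groups with LPS lay below both without it. TOLLIP fell by 0.37 ± 0.06 in LPS minus Control (adjusted p = 1.39e-06) and by 0.24 ± 0.06 in DCVC_LPS minus DCVC (adjusted p = 0.000727). With equal totals these changes were -0.85 and -0.53, and in letters E and F alone the second was -0.16 and not called (adjusted p = 0.128). The fall of 0.15 ± 0.06 with DCVC alone (adjusted p = 0.0207) lost its call without Control A (-0.13, adjusted p = 0.0559), Control B (-0.11, adjusted p = 0.0671) or DCVC C (-0.14, adjusted p = 0.0514). With equal totals that change was 0.10 (adjusted p = 0.13). In DCVC_LPS minus LPS the change was -0.02, with a 95% interval from -0.13 to 0.10, and with equal totals 0.41 (adjusted p = 2.76e-07).

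TRAF6, the ubiquitin ligase at the centre of the relay (chr11:36487027-36510272, minus strand), had the smallest change of the 10 genes with LPS alone and with DCVC alone on the deposited scale. It averaged 554 ± 46.0 (SD, n = 6) in Control and 531 ± 25.8 in LPS, with 557 ± 18.9 in DCVC and 594 ± 60.3 in DCVC_LPS, and every pair of groups overlapped. The 95% interval of its change was -0.20 to 0.08 in LPS minus Control and -0.13 to 0.15 in DCVC minus Control. TRAF6 was raised by 0.16 ± 0.07 in DCVC_LPS minus LPS (adjusted p = 0.0399). That call was lost on leaving out LPS B, D or F or DCVC_LPS A, B, C or E, where the adjusted p was at most 0.101 and the smallest change 0.13. It was also lost with no filter, by edgeR (0.15, adjusted p = 0.057), in letters C and D (0.03, adjusted p = 0.794) and in E and F (0.14, adjusted p = 0.337). With equal totals TRAF6 was lower by 0.53 in LPS minus Control (adjusted p = 7.81e-08), higher by 0.26 with DCVC alone (adjusted p = 0.00152) and higher by 0.59 in DCVC_LPS minus LPS (adjusted p = 2.32e-08).

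TAB2 and TAB3 are the adaptors that read the ubiquitin chains, and TAB2 followed both agents. TAB2 (chr6:149218641-149411613, plus strand) ran from 6013 to 7833 in Control (median 7363), 2254 to 2708 in DCVC (median 2491), 11515 to 13598 in LPS (median 12815) and 6697 to 7971 in DCVC_LPS (median 7399.7). The DCVC group was the lowest and the LPS group the highest, neither overlapping any other group, while DCVC_LPS overlapped Control. TAB2 fell by 1.50 ± 0.07 with DCVC alone (adjusted p = 1.47e-14) and by 0.77 ± 0.07 in DCVC_LPS minus LPS (adjusted p = 3.45e-10). It rose by 0.84 ± 0.07 in LPS minus Control (adjusted p = 3.67e-11) and by 1.57 ± 0.07 in DCVC_LPS minus DCVC (adjusted p = 7.9e-16). All 4 changes kept their direction and call with equal totals and within each pair of letters. With equal totals the rise in LPS minus Control was 0.36 and the fall in DCVC_LPS minus LPS 0.34. The TAB2 gene shares 136 exon bases with a lincRNA on the same strand that has no row under its name.

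TAB3 (chrX:30827442-30975084, minus strand) behaved otherwise, with 433 to 577 normalized counts in Control (median 495), 603 to 694 in DCVC (median 651), 823 to 1195 in LPS (median 1125) and 881 to 1112 in DCVC_LPS (median 1037). DCVC lay above Control, both groups with LPS lay above both without, and LPS and DCVC_LPS overlapped. TAB3 rose by 1.06 ± 0.09 in LPS minus Control (adjusted p = 6.54e-11), by 0.39 ± 0.09 with DCVC alone (adjusted p = 0.000662) and by 0.64 ± 0.09 in DCVC_LPS minus DCVC (adjusted p = 1.15e-06). In DCVC_LPS minus LPS the change was -0.04, with a 95% interval from -0.23 to 0.14, and with equal totals it was 0.39 and called (adjusted p = 0.000168). The 3 rises were 0.59, 0.64 and 0.34 with equal totals. Its antisense partners TAB3-AS1 and TAB3-AS2 averaged 0.19 and 0.15 normalized counts over all libraries.

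TAB1, the activator of TAK1 (chr22:39399741-39437060, plus strand), fell with LPS while TAB2 and TAB3 rose. It ran from 1180.5 to 1388 in Control (median 1291), 917 to 1050.0 in DCVC (median 981), 356 to 472 in LPS (median 406) and 496 to 579 in DCVC_LPS (median 528). No 2 groups overlapped, in the order Control, DCVC, DCVC_LPS, LPS. TAB1 fell by 1.65 ± 0.07 in LPS minus Control (adjusted p = 8.93e-17), by 0.38 ± 0.07 with DCVC alone (adjusted p = 5.54e-05) and by 0.89 ± 0.07 in DCVC_LPS minus DCVC (adjusted p = 5.03e-11). In DCVC_LPS minus LPS it was higher by 0.39 ± 0.07 (adjusted p = 2.22e-05). With equal totals the fall with DCVC alone was 0.13 and not called (adjusted p = 0.148), and the rise in DCVC_LPS minus LPS was 0.82.

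MAP3K7, the gene of TAK1 itself (chr6:90513573-90587045, minus strand), had a coefficient of variation of 2.08% to 3.07% within groups. It ran from 2184 to 2298 in Control and from 2613 to 2807 in DCVC, against 3677 to 3994 in LPS and 3715 to 4022 in DCVC_LPS. DCVC lay wholly above Control and both groups with LPS lay wholly above DCVC. MAP3K7 rose by 0.78 ± 0.04 in LPS minus Control (adjusted p = 1e-15), by 0.27 ± 0.04 with DCVC alone (adjusted p = 1.19e-06) and by 0.50 ± 0.04 in DCVC_LPS minus DCVC (adjusted p = 2.29e-11). In DCVC_LPS minus LPS its change was -0.02, with a 95% interval from -0.09 to 0.06, and 0.41 with equal totals (adjusted p = 7.74e-10). Its 3 rises were 0.31, 0.52 and 0.20 with equal totals.

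MAP3K8, the ERK-route kinase TPL2 (chr10:30433937-30461833, plus strand), ran from 113.5 to 194 in Control (median 174), 129 to 279 in DCVC (median 235), 2382 to 2948 in LPS (median 2498) and 1914 to 2479 in DCVC_LPS (median 1966). Both groups with LPS lay far above both without it, and LPS overlapped DCVC_LPS. This is the only relay gene whose promoter windows held an NF-kB match. The log2 change was 3.98 ± 0.15 in LPS minus Control (adjusted p = 2.19e-17) and 3.32 ± 0.15 in DCVC_LPS minus DCVC (adjusted p = 2.87e-15). With DCVC alone the change was 0.34 ± 0.15 (adjusted p = 0.0598), and with the letter as a block it was called (adjusted p = 0.012). With equal totals it was 0.59 and called (adjusted p = 0.00161). In DCVC_LPS minus LPS the change was -0.32 ± 0.15 (adjusted p = 0.0645), called with the block (adjusted p = 0.0144) and 0.11 with equal totals (adjusted p = 0.532). The first of these gained its call without Control A, B or D (adjusted p = 0.0439, 0.0413 and 0.0487) or without DCVC E or F (0.0249 and 0.00448). The second gained it without Control E, DCVC F or DCVC_LPS A (0.0453, 0.03 and 0.044).

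Levels of different genes were set side by side only per kb of exon, taking all annotated exons of a gene together, so the order depends on the annotated length. In Control the order was IRAK1 at 2055 ± 322 normalized counts per kb (SD, n = 6), TAB2 at 1175 ± 121, TOLLIP at 816 ± 84.7, MAP3K7 at 310.4 ± 6.46, TAB1 at 288 ± 18.2, TRAF6 at 114 ± 9.45, IRAK2 at 83.5 ± 23.7, MAP3K8 at 46.3 ± 8.76, TAB3 at 39.3 ± 4.24 and IRAK3 at 27.8 ± 14.4. MAP3K7 and TAB1 overlapped, as did each neighbour from TRAF6 down to IRAK3. With LPS, IRAK2 stood at 3671 ± 207 per kb and overlapped IRAK1 at 2911 ± 370.0, followed by TAB2 at 2099 ± 140 and MAP3K8 at 725 ± 69.6. IRAK3 had the lowest mean in all 4 groups, at 15.9 ± 1.93 per kb in LPS and 16.2 ± 2.05 in DCVC_LPS. In DCVC it stood at 38.9 ± 13.6 and overlapped TAB3 at 51.2 ± 3.09. In DCVC_LPS IRAK2 at 2049 ± 95.9 and IRAK1 at 1751 ± 190 overlapped as well. TAB2 left its place next to IRAK1 only in DCVC, where it stood below TOLLIP at 414 ± 28.4 per kb and overlapped MAP3K7 at 375 ± 11.5.

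Whether DCVC changed the size of the LPS response is the interaction, DCVC_LPS minus DCVC set against LPS minus Control. It was called for 5 of the 10 genes, 2 above 0 and 3 below, where 45.7% of all tested genes were called, 22% above and 23.7% below. TAB1 had an interaction of 0.77 ± 0.10 (adjusted p = 9.44e-07), from a fall of 1.65 without DCVC to a fall of 0.89 with it. TAB2 had 0.73 ± 0.10 (adjusted p = 1.65e-06), from a rise of 0.84 to a rise of 1.57. The rises of MAP3K8, TAB3 and MAP3K7 were smaller after DCVC, with interactions of -0.66 ± 0.22 (adjusted p = 0.0156), -0.43 ± 0.13 (adjusted p = 0.00745) and -0.29 ± 0.05 (adjusted p = 9.9e-05). IRAK2 had -0.29, with a 95% interval from -0.75 to 0.17, and its values within letters were 0.14 in A and B (adjusted p = 0.488), -0.45 in C and D (adjusted p = 0.000218) and -0.56 in E and F (adjusted p = 0.0187). IRAK1 had -0.31 (adjusted p = 0.125), called with the letter as a block (adjusted p = 0.00213). IRAK3 had -0.53 (adjusted p = 0.214) and TOLLIP 0.14 (adjusted p = 0.16), and without Control F they were called at -0.74 (adjusted p = 0.0431) and 0.18 (adjusted p = 0.0354). With equal totals the interactions of TAB1 and TAB2 were 0.95 and 0.91 and called, those of MAP3K8, TAB3 and MAP3K7 were -0.48, -0.25 and -0.11 and not called, TRAF6 and TOLLIP were called at 0.33 and 0.32, and the count was 4 above and 0 below. Within letters A and B, C and D, and E and F, 5, 6 and 1 genes were called below 0, and in each pair TAB1 and TAB2 were called above 0. The 1 gene in E and F was IRAK2, and MAP3K8, TAB3 and MAP3K7 were not called there (-0.50, -0.36 and -0.28, adjusted p = 0.139, 0.0888 and 0.0958).

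**Figure D3:**
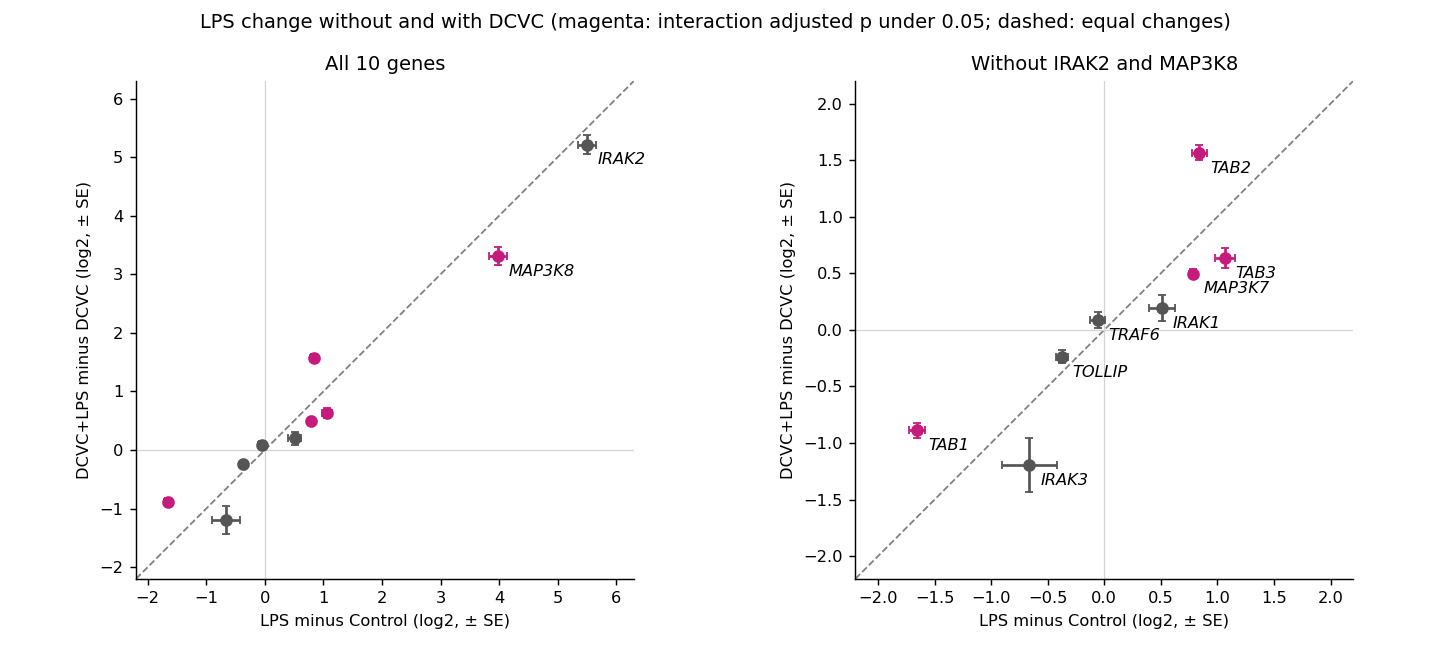
Log2 change with LPS in cells without DCVC (x axis) and with DCVC (y axis), ± SE, for all 10 relay genes and again without IRAK2 and MAP3K8, with magenta where the interaction has an adjusted p under 0.05 and a dashed line for equal changes. TAB1 and TAB2 lie above the line, and MAP3K8, TAB3 and MAP3K7 below it.

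**Figure D4:**
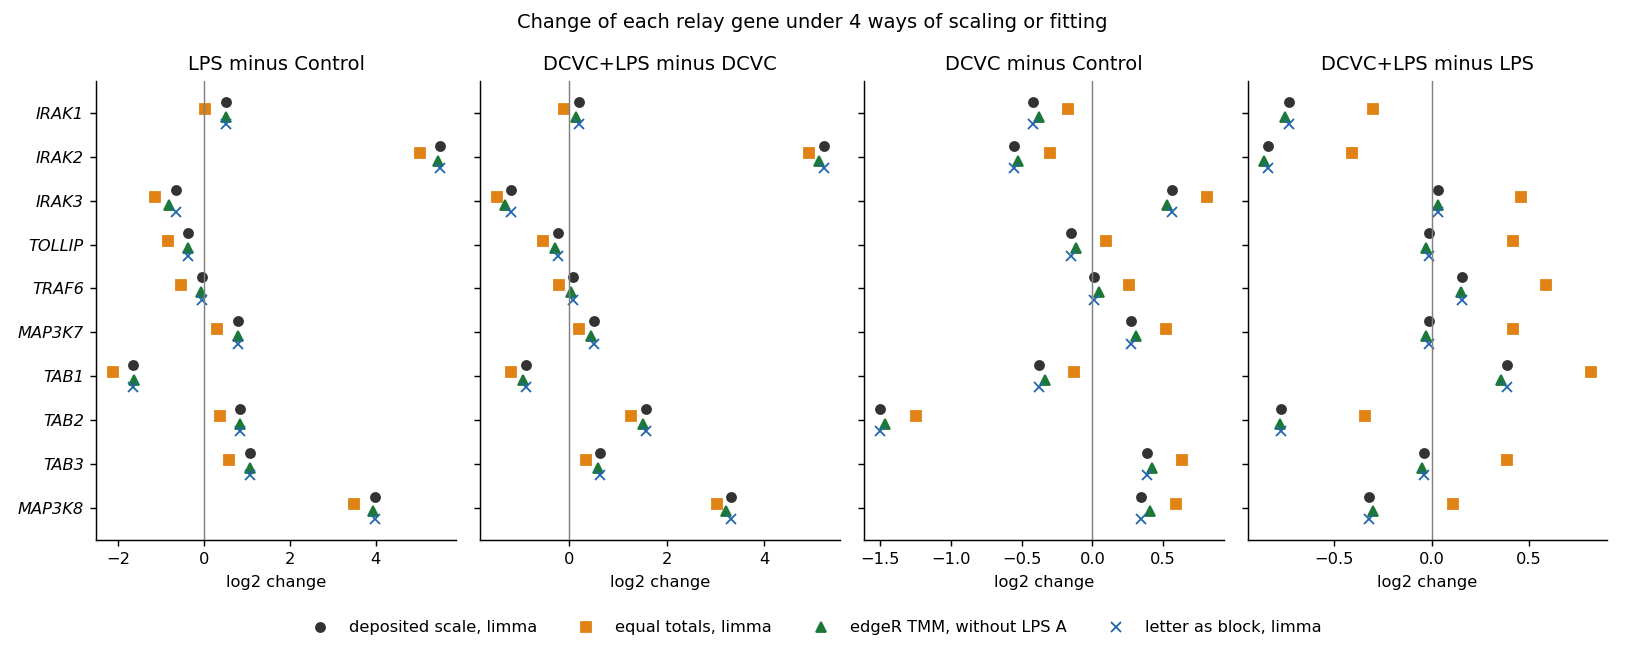
Log2 change of each relay gene on the deposited scale, with equal totals, by edgeR without LPS A, and with the letter as a block. Equal totals shift all 10 genes together, to the left in both LPS comparisons and to the right in both DCVC comparisons. IRAK2, IRAK3, TAB1 and TAB2 keep their sides in every comparison shown. With DCVC alone IRAK2 and TAB1 are then no longer called (-0.30 and -0.13, adjusted p = 0.0873 and 0.148).

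Around the relay, 8 lists of pathway genes were counted in the same fit, beside 37.8% raised and 40.6% lowered over all tested genes with LPS. The lists were chosen with earlier results of these data known, so their counts are a description and not a test. Of 8 genes of the TLR4 complex and its adaptors, LPS raised 4 and lowered 4 (3 and 4 with equal totals; median -0.02). The adaptor MYD88 rose by 2.00 and TICAM1 by 2.11, and the co-receptor CD14 fell by 3.82. Of 9 genes around IRAK4, the Pellino ligases and the ubiquitin-conjugating enzymes, LPS raised 6 and lowered 2 (3 and 5 with equal totals; median 0.30): PELI1, a ligase that acts on IRAK1, rose by 3.95, UBE2N, the enzyme that works with TRAF6, by 0.87, and TIFA by 2.81, while PELI3 and IRAK4 fell by 2.98 and 0.80. Of 6 linear-ubiquitin and IKK genes 5 were raised and 1 lowered (2 and 1 with equal totals; median 0.47), of 12 MAP kinases and their kinases 5 and 6 (4 and 7; median -0.05), and of 6 other TRAF genes 5 and 1 (3 and 1; median 0.92). Both partners of TPL2 rose, NFKB1 by 3.85 and TNIP2 by 2.41, beside the 3.98 of MAP3K8. Of 9 brakes and deubiquitinases 7 were raised and 1 lowered (6 and 3 with equal totals; median 1.92), with TNFAIP3 up by 5.40, TNIP1 by 4.80 and CYLD by 2.63, and all 14 NF-kB response genes were raised (median 5.79).

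After DCVC and LPS, set against LPS alone, several genes above the relay were lower, where 33.3% of all tested genes were raised and 39.4% lowered. MYD88 fell by 2.40 (adjusted p = 1.00e-13), from 3832 to 5247 normalized counts in LPS (median 4904) to 670 to 1564 in DCVC_LPS (median 845), and the groups did not overlap. DCVC_LPS F lay above the other 5 libraries of its group for MYD88, PELI1 and TLR4, and without it their changes were -2.56, -1.11 and -1.93. TLR4 fell by 1.81 while TIRAP and LY96 were higher by 0.65 and 0.60, and the list had 2 raised and 5 lowered (3 and 4 with equal totals; median -1.06). IRAK4 was higher by 0.80 (adjusted p = 1e-06), opposite to IRAK1 and IRAK2, and its list had 2 raised and 2 lowered (6 and 1 with equal totals; median 0.08). UBE2N and TNIP2 were lower by 0.49 and 0.50, calls that equal totals ended (adjusted p = 0.333 and 0.538), PELI1 was lower by 0.99, and NFKB1 by 1.07. The linear-ubiquitin and IKK genes had 2 raised and 3 lowered (3 and 1 with equal totals; median -0.14), the MAP kinases 4 and 4 (7 and 4; median -0.10), the other TRAF genes 0 and 5 (0 and 2; median -0.64). The brakes had 0 raised and 7 lowered (3 and 4 with equal totals; median -0.61), with TNFAIP3 lower by 1.76, and the NF-kB response genes 0 and 13 of 14 (0 and 9; median -1.71). MYD88 had an interaction of -1.78 (adjusted p = 6.28e-08), NFKB1 of -0.59 (adjusted p = 8.45e-05) and TNIP2 of -0.68 (adjusted p = 0.000371), while TNFAIP3 had 0.18 (adjusted p = 0.524).

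With DCVC alone 27.5% of all tested genes were raised and 32.2% lowered, and the TLR4 list had 0 raised and 6 lowered (1 and 5 with equal totals; median -0.60), with MYD88 down by 0.62 and CD14 by 3.11. The IRAK4 list had 4 raised and 1 lowered (7 and 1 with equal totals; median 0.22), with IRAK4 up by 0.38 and PELI3 down by 1.94. Linear-ubiquitin and IKK genes had 1 and 1 (4 and 1 with equal totals; median 0.10), MAP kinases 1 and 4 (7 and 2; median -0.07), other TRAF genes 0 and 6 (0 and 2; median -0.51), brakes 2 and 4 (3 and 3; median -0.17) and NF-kB response genes 1 and 8 (median -0.81). NFKB1 was lower by 0.48 and TNFAIP3 by 1.94, and TNIP2, UBE2N and PELI1 were not called, at 0.18, -0.03 and -0.02. With equal totals TNIP2 and UBE2N were called at 0.43 and 0.22, and TNIP2 was called with the letter as a block (adjusted p = 0.0263) and without Control B (0.27, adjusted p = 0.0127) or DCVC E (0.24, adjusted p = 0.0467). In DCVC_LPS minus DCVC, where 29.9% of all tested genes were raised and 32.2% lowered, the lists had, in the same order, 1 raised and 4 lowered, 3 and 2 (2 and 4 with equal totals), 4 and 1 (1 and 2), 4 and 5 (2 and 7), 5 and 0 (4 and 1), 6 and 2 (5 and 3) and 14 and 0. MYD88 was not called there, at 0.23 (adjusted p = 0.147), but was without DCVC_LPS E, at 0.31 (adjusted p = 0.0437), and was 0.07 without DCVC_LPS F (adjusted p = 0.553).

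**Figure D5:**
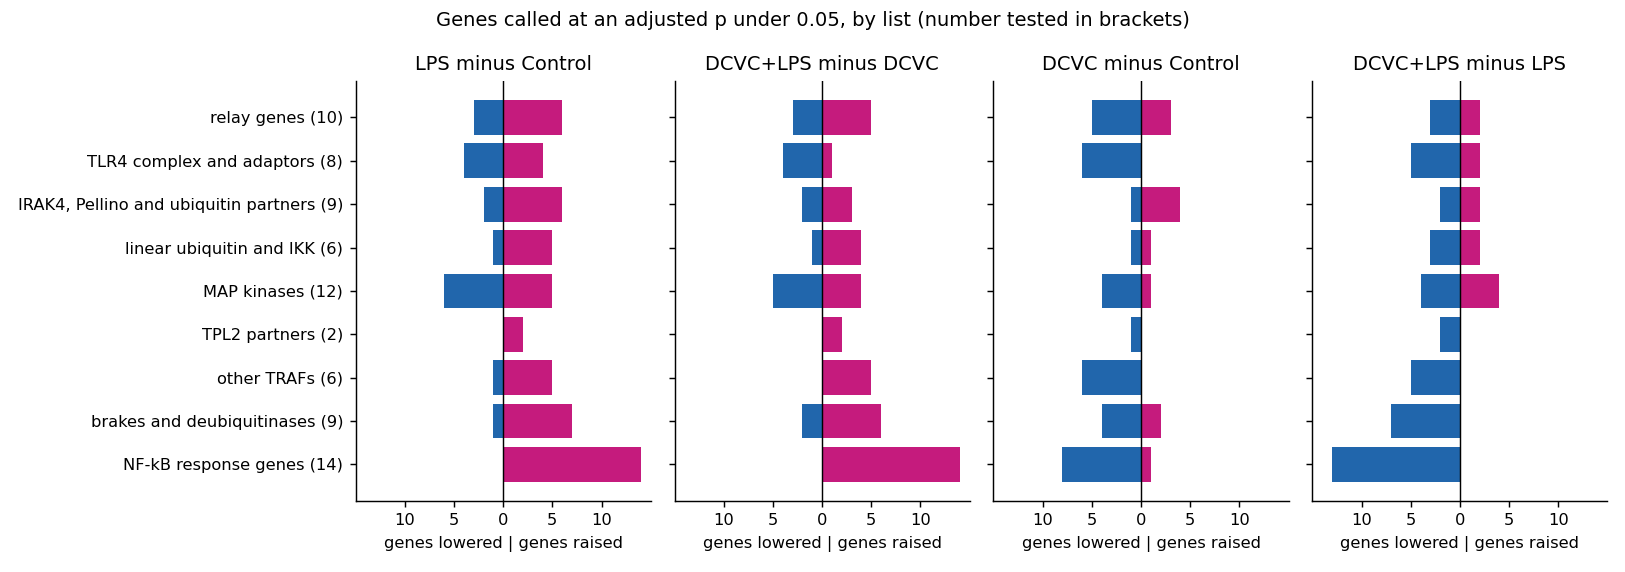
Genes raised (right) and lowered (left) at an adjusted p under 0.05 in each list, with the number tested in brackets, for the 4 comparisons. All 14 NF-kB response genes are raised by LPS with and without DCVC, and 13 of 14 are lowered in DCVC_LPS minus LPS. There 3 of the 10 relay genes and 39.4% of all tested genes are lowered. The lists were chosen with earlier results of these data known, so these counts are a description and not a test.

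For IRAK2, IRAK3, MAP3K8 and TAB2 the rule on likeness names the 3 tested genes with the most similar pattern over the 24 libraries, by the root-mean-square difference of centred log2 values. IRAK2 was nearest to CD83 (0.372), ELOVL7 (0.437) and CRIM1 (0.467). IRAK3 was nearest to ADGRL1 (0.248), SKI (0.288) and HOXA9 (0.331), and MAP3K8 to NAMPT (0.247), to its pseudogene NAMPTP1 (0.243), whose reads cannot be told from those of NAMPT with certainty, and to PIM2 (0.265). TAB2 was nearest to KLHL5 (0.115), which averaged 3174 in Control and 5672 in LPS, with 1094 in DCVC and 3069 in DCVC_LPS, then to NBPF14 (0.223), a member of a family of near-identical copies, and to HRH1 (0.232). The nearest genes to the other 6, added after their values were seen, were YTHDF1 for MAP3K7 (0.0565), RELCH for TOLLIP (0.0891), GMEB1 for TAB3 (0.091), TPP1 for TRAF6 (0.0965), WAS for TAB1 (0.117) and NACC1 for IRAK1 (0.135).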

How the data were processed

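Poly-A RNA was sequenced from 24 libraries of PMA-differentiated THP-1 cells, 6 per group. Per the submitters' processing notes, which give no roles, the tools were STAR, featureCounts 1.6.1 and DESeq2 1.24.0 in R 3.6.0, with FastQC 0.11.5 and MultiQC 0.9, and the build was hg38. For the annotation, the strand setting and multiply mapped reads, nothing is given in the sources used here. The table the authors deposited holds a signal per gene and library, which the values show to be reads divided by 1 factor per library (100% of values whole within 0.1 read), so they are normalized counts. Where reads were counted without strand, a gene and its antisense partner cannot be told apart.

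Entries without a gene name (33.56% of entries, 1.01% of values) were left out, and 51 symbols on 2 entries were summed. A mean of 10 or more left 13900 genes, tested on log2(value + 1) by limma 3.58.1 (R 4.3.3, trended empirical Bayes, 1 mean per group, all 24 libraries), and the pseudocount of 1 understates changes of low genes. A gene is called at a Benjamini-Hochberg adjusted p under 0.05 over all tested genes. Errors are SE for changes and SD for levels. The alternatives were pseudocounts of 0.5 and 5, no filter, a mean of at least 50, equal totals and the letter as a block. Letters A and B, C and D, and E and F were also fitted alone, with 2 libraries per group, and each library was left out. These pairs are not given in the labels, and such fits split the same libraries and are no replication. Added after seeing the data were edgeR 4.0.16 (TMM) and DESeq2 1.42.0 on the reads recovered from the values, without LPS A. In LPS A 1 read is worth 0.991 normalized counts, close to 1, though its values were 100% whole as well. The edgeR and DESeq2 fits therefore differ from limma in the libraries used as well as in method. Simulated data tested only the limma fit of LPS minus Control, with 200 genes raised and neither letter effects nor unequal group totals. The other fits, the block and the interaction were not tested in this way.

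The letters A to F come from the sample titles. Deviations from group means correlated above 0.1 in 36 of 36 same-letter pairs (0.134 to 0.539). The median was -0.114 over 144 pairs of other letters, without pairs inside A and B, C and D, or E and F. Deviations cancel within a group, so negative values for other letters follow in part from positive same-letter values. The letters were taken to pair the samples, but the fit behind the calls has no letter term. Its SEs, intervals, adjusted p and calls are unpaired. With the block, 4358 of all tested genes were raised and 5105 lowered in DCVC minus Control, against 3820 and 4478. Block values are given where they change a call of a relay gene. Relay genes and lists were chosen with earlier results of these data known. By rule the text names all 10 relay genes, from each list up to 2 raised and 2 lowered genes with the smallest adjusted p, and always IRAK4, MYD88, UBE2N, PELI1, TNIP2, NFKB1 and TNFAIP3, and for IRAK2, IRAK3, MAP3K8 and TAB2 the 3 most similar genes. Positions and exon lengths are from GENCODE 29 on GRCh38, promoter windows from RefSeq on GRCh38.p14.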

Additional observations from a re-analysis of the deposited data

Results flagged for a closer look

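The LPS change differed between cells with and without DCVC for 5 relay genes, by the interaction test in limma. TAB1 and TAB2 had interactions of 0.77 and 0.73 on the log2 scale, and TAB3, MAP3K7 and MAP3K8 of -0.43, -0.29 and -0.66. Equal totals ended the last 3 and kept TAB1 and TAB2. No library stood apart from the other 5 of its group for any relay gene by Dixon's test.

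Among the pathway genes named, the interaction was -0.90 for TLR4, 0.87 for TIRAP, -1.78 for MYD88, 0.43 for IRAK4, -0.97 for PELI1, 1.64 for PELI3, -0.47 for UBE2N, -0.59 for NFKB1, -0.68 for TNIP2, -0.78 for CYLD and -0.96 for TNIP1. That of IRAK4 lost its call without Control E or F, DCVC D, LPS A, B or D, or DCVC_LPS A or C, with adjusted p up to 0.0671, and by edgeR without LPS A (0.28, adjusted p = 0.144). Single libraries stood apart from the other 5 of their group, by Dixon's test, for CD14 and TIFA in Control F (4443 and 289 normalized counts), UBE2N in DCVC A (2301), TNFAIP3 in DCVC E (197), MYD88, PELI1 and CYLD in DCVC_LPS F (1564, 3637 and 4425), and TNIP1 in LPS E (40672) and DCVC_LPS E (20320.2). Chance flags about 1 in 20 groups.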

How the results depend on the processing

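Over 50 changes of the relay genes, 35 of them called, 1750 alternative values were computed: 1643 kept direction and call, 51 lost a call, 33 gained one and 23 changed sign, 2 of these for a called change. With equal totals, 5 genes were raised and 1 lowered in DCVC minus Control, 5 raised in DCVC_LPS minus LPS, and 4 interactions lay above 0 and 0 below. The count raised in DCVC_LPS minus LPS was 1 with no filter, by edgeR, in letters C and D and in letters E and F, and 1 to 2 on leaving out a library. In letters E and F alone 3 genes were lowered in DCVC minus Control. Interactions below 0 numbered 5 in letters A and B, 6 in C and D and 1 in E and F.

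Signs changed with equal totals for TOLLIP (0.10) in DCVC minus Control, for TAB3 (0.39), MAP3K7 (0.41), MAP3K8 (0.11) and TOLLIP (0.41) in DCVC_LPS minus LPS, and for IRAK1 (-0.10) and TRAF6 (-0.21) in DCVC_LPS minus DCVC. They changed in letters A and B for IRAK3 in LPS minus Control (0.023) and in DCVC_LPS minus LPS (-0.038) and for the IRAK2 interaction (0.14). In letters C and D they changed for MAP3K7 in DCVC_LPS minus LPS (0.016), TRAF6 in DCVC_LPS minus DCVC (-0.041) and the TRAF6 interaction (-0.030). In letters E and F they changed for TRAF6 in DCVC minus Control (-0.083) and for TAB3 (0.083) and TOLLIP (0.053) in DCVC_LPS minus LPS, and TOLLIP gave 0.0019 by DESeq2. Leaving out a library gave -0.015 to 0.051 for TRAF6 in DCVC minus Control and -0.023 to 0.091 for IRAK3 in DCVC_LPS minus LPS. The cause was not tested, beyond the shift that equal totals make by construction.

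The letter as a replicate block added 4 calls, MAP3K8 in both comparisons of DCVC (adjusted p = 0.012 and 0.0144), IRAK1 in DCVC_LPS minus DCVC (adjusted p = 0.00384) and the IRAK1 interaction (adjusted p = 0.00213), and changed no other call of the relay genes. IRAK3 had the largest SE of a change between groups (0.24), with a coefficient of variation of 52.0% in Control and 12.2% in LPS, and the part of depth in this was not tested.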
